A study of Homo sapiens with 83 samples.

Results

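The transcripts described here were those of the REV-ERB and ROR nuclear receptors, NR1D1 (REV-ERBα), NR1D2 (REV-ERBβ), RORA and RORB, taken as the genes whose listed symbol equals one of these names, 4 of 60237 genes in the table. They were measured by RNA-sequencing of polyadenylated RNA in SHEP and SKNAS, human neuroblastoma cell lines that overexpress N-MYC-ER, in which N-MYC is joined to part of the estrogen receptor and stays inactive until its ligand 4-hydroxytamoxifen (4OHT) is given. Cells received 4OHT (MYC-ON) or ethanol vehicle (MYC-OFF) for 24 h, after which all groups received dexamethasone to set their clocks, and RNA was taken every 4 h from 24 h later. Circadian time (CT) counts hours from dexamethasone. SHEP MYC-OFF and SHEP MYC-ON had 28 libraries each, 2 series of 14 from CT24 to CT76. SKNAS MYC-OFF had 14 libraries to CT76 and SKNAS MYC-ON 13 to CT72, in 1 series each. All groups carry the fusion, and no library without it was given 4OHT here, so an effect of activated N-MYC and one of 4OHT itself cannot be told apart. Another cell line and a further SKNAS experiment were not analysed here.

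REV-ERB and ROR proteins are nuclear receptors that bind the same DNA element, the RORE, with opposite effect. REV-ERBs repress transcription from it through the NCOR1 corepressor and the histone deacetylase HDAC3, and RORs activate it. A well known RORE-bearing gene is ARNTL (BMAL1), whose protein joins CLOCK to activate genes with E-boxes, the REV-ERB genes among them, and this closes a loop that interlocks with the PER and CRY loop of the clock. REV-ERBs bind heme, and their proteins are short-lived. The study asked how activated N-MYC alters transcript levels and their circadian oscillation.

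In GRCh38, Gencode 44 places NR1D1 at chr17:40092793-40100589 on the minus strand, NR1D2 at chr3:23945286-23980617 on the plus strand, RORA at chr15:60488284-61229302 on the minus strand and RORB at chr9:74497335-74693177 on the plus strand. The opposite-strand gene THRA, a thyroid hormone receptor, shares 473 exonic bases with NR1D1, which is 18.0% of the NR1D1 exonic bases. RORA-AS1, a long noncoding RNA, shares 564 exonic bases with RORA (3.31%). RORA-AS2 and RORB-AS1 lie opposite RORA and RORB and share 0 exonic bases with them. Whether strand was used in the quantification is not given in the sources used here, so reads from the shared exons cannot be told apart.

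The stretches just upstream of the REV-ERB start sites are shown because both REV-ERB genes were called higher in MYC-ON in both lines. RefSeq promoter windows (GRCh38.p14, 250 bases before to 50 after a start) were at hand for all 4 members, 6 windows in all. The motifs searched on both strands were the E-box CACGTG, the E′-box CACGTT, the RORE-type elements TAGGTCA and TGGGTCA, and the D-boxes TTATGTAA and TTACATAA, none of which overlapped another in these windows. Matches are in capitals, and the first line is chr17:40100590-40100839 (minus strand), the second chr3:23945871-23946120 (plus strand), neither of which overlaps an annotated exon.
NR1D1: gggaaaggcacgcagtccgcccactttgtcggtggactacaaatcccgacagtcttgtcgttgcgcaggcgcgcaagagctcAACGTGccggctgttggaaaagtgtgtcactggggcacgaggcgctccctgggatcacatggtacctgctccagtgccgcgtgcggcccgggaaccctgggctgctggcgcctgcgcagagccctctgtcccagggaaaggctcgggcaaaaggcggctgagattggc
NR1D2: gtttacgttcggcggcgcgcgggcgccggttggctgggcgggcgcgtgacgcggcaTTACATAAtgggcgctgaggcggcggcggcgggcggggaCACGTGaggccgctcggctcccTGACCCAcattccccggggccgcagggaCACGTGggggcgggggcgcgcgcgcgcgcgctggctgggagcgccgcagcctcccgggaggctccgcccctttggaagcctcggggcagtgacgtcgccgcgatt
The NR1D1 stretch held 1 E′-box, which began 168 bases before the start. The NR1D2 stretch held 2 E-boxes, 155 and 105 bases before its start, with a D-box at 194 and an RORE-type element at 133. Of 35116 promoter windows in the same table, 7.26% held the E-box, 5.34% the E′-box, 5.69% an RORE-type element and 0.886% a D-box. The other NR1D2 start, the RORA window and both RORB windows held none of these letters. The RORA window, chr15:60627481-60627780, lies inside the gene as placed above, as does the NR1D2 stretch shown. The outermost RORA start had no window, so its promoter was not searched. For ARNTL, the RORE-type match began 31 bases after a start and is shown with 10 bases on either side, at chr11:13277810-13277836 (plus strand).
ARNTL: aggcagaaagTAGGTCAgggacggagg
These matches describe letters only, and no binding was measured in this series.

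TPM, the deposited unit, are scaled for gene length and to the same total in every library, so they can be compared between genes but keep no read depth. The depth of a single library is thus unknown. The median over genes of log2(TPM + 1) ran from 3.93 to 4.17 in MYC-OFF and from 3.93 to 4.12 in MYC-ON of SHEP, but from 2.97 to 4.38 in SKNAS MYC-OFF and from 2.76 to 4.25 in SKNAS MYC-ON. SKNAS results are therefore given also after median-of-ratios rescaling of the TPM and with the library median as a covariate. A median of at least 3.8 was found in 10 of 14 SKNAS MYC-OFF libraries and in 3 of 13 SKNAS MYC-ON ones. The median thus went with the condition in SKNAS, so a fit with it as a covariate cannot fully tell their parts apart. MYCN, whose coding sequence the fusion carries, was high in every SHEP library. It ran from 406.4 to 688.4 TPM in SHEP MYC-OFF (mean 555.2) and from 255.1 to 514.8 in SHEP MYC-ON (mean 376.7). In SKNAS it ran from 29.1 to 987.4 TPM in MYC-OFF (mean 547.4) and from 13.1 to 1046 in MYC-ON (mean 364.8). Its mean was thus lower in MYC-ON in both lines, with overlapping ranges, so a higher MYCN level does not mark activation. SHEP libraries listed 7 of 8 mesenchymal neuroblastoma markers at a mean of at least 1 TPM in MYC-OFF and 8 of 8 in MYC-ON, with summed levels of 3971 to 5295 and 3294 to 4885 TPM, against 3 and 2 of 8 adrenergic markers with 29.0 to 44.6 and 37.6 to 55.5 TPM. SKNAS listed 7 of 8 mesenchymal markers in each condition (818.0 to 2191 and 672.8 to 2679 TPM) and 4 and 3 of 8 adrenergic ones. The adrenergic sum was 245.1 to 564.7 TPM in SKNAS MYC-OFF and 75.7 to 232.4 in MYC-ON with no overlap, and its part in the results below was not tested. In these bulk samples, fewer cells of a kind and less RNA per cell cannot be told apart.

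NR1D1 was higher in MYC-ON than in MYC-OFF in both lines, with no overlap between the ranges of the conditions. The share of all genes whose ranges did not overlap was not computed for either line. In SHEP MYC-OFF it was lowest at 3.15 TPM, had a median of 5.03 and was highest at 6.96 (mean 4.93 ± 1.19, SD, n = 28). In SHEP MYC-ON it ran from 30.1 over a median of 34.6 to 46.5 TPM (35.1 ± 3.51, SD, n = 28). No library of one condition reached the range of the other, and the MYC-ON library was the higher one in 28 of 28 pairs of the same CT and series. The mean was 7.12 times as high in MYC-ON, and the change was 2.63 ± 0.045 (SE) on the log2(TPM + 1) scale, which understates changes of low transcripts (limma, adjusted p = 5.6e-41).

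In SKNAS, too, NR1D1 was higher in MYC-ON in every pair. NR1D1 ran from 2.89 over a median of 7.19 to 14.2 TPM in SKNAS MYC-OFF (7.26 ± 2.82, SD, n = 14) and from 22.6 over 48.3 to 81.8 TPM in SKNAS MYC-ON (46.6 ± 16.9, SD, n = 13). The ranges again did not overlap, and MYC-ON was higher in 13 of 13 pairs of the same CT. The log2 change was 2.51 ± 0.18 (limma, adjusted p = 3.4e-08), and 2.87 both with rescaled TPM and with the library median as a covariate. The difference between the lines' changes, SKNAS minus SHEP, was -0.11 ± 0.12 (SE) for NR1D1 and did not pass (adjusted p = 0.45).

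THRA, which overlaps the end of NR1D1, went the other way. It was lower in MYC-ON by -0.50 in SHEP (limma, adjusted p = 4.2e-09) and by -0.93 in SKNAS (adjusted p = 0.013), the latter no longer called with the library median as a covariate (-0.25, adjusted p = 0.077).

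**Figure D1:**
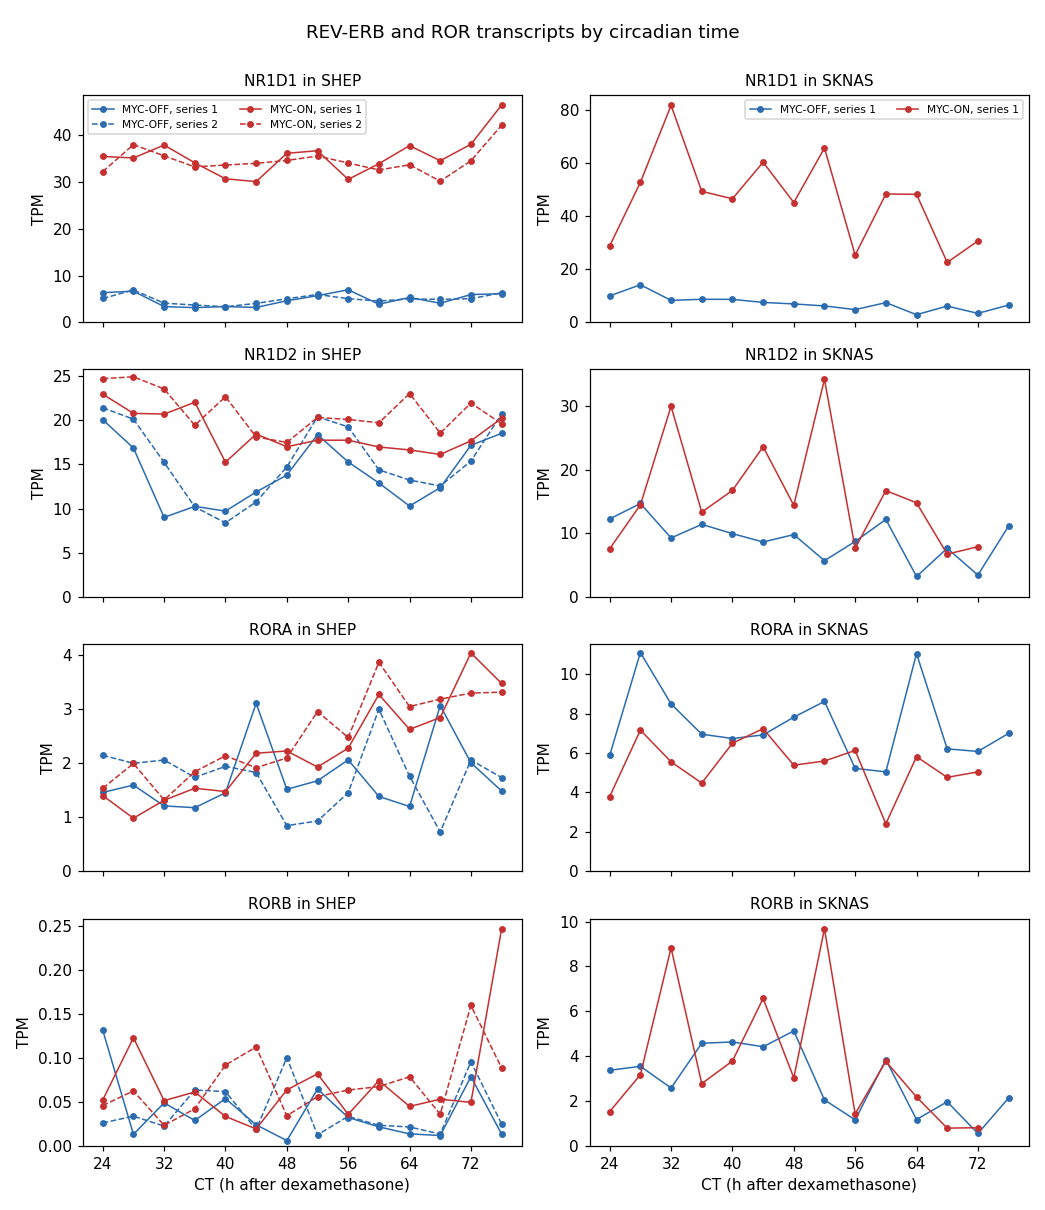
TPM of each member (rows) by CT in hours after dexamethasone, in SHEP (left, 2 series per condition) and SKNAS (right, 1 series), with MYC-OFF in blue and MYC-ON in red. NR1D1 is separated by condition at every CT, RORA in SHEP MYC-ON ends above where it began, and RORB stays at or below 0.25 TPM in SHEP.

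NR1D2, the paralog of NR1D1, was also higher in MYC-ON, but by much less and with overlapping ranges. In SHEP it ran from 8.38 over a median of 14.5 to 21.4 TPM in MYC-OFF and from 15.2 over 19.6 to 24.9 TPM in MYC-ON, and MYC-ON was higher in 25 of 28 pairs. The log2 change was 0.44 ± 0.063 (limma, adjusted p = 2.8e-08). Single hours differed in the gap, here as values with no test of the hour. At CT40, NR1D2 was at 9.71 and 8.38 TPM in the 2 MYC-OFF series against 15.2 and 22.7 in MYC-ON, while at CT52 it was at 18.4 and 20.4 TPM in MYC-OFF against 17.7 and 20.3 in MYC-ON. The MYC-OFF libraries thus lay under the MYC-ON ones at CT40 and at about their level at CT52.

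In SKNAS, NR1D2 ran from 3.20 over a median of 9.53 to 14.7 TPM in MYC-OFF and from 6.71 over 14.5 to 34.2 TPM in MYC-ON, with MYC-ON higher in 9 of 13 pairs. The log2 change was 0.70 ± 0.24 (limma, adjusted p = 0.024). It came to 1.04 with rescaled TPM and 1.19 with the library median as a covariate, and was no longer called when low genes were kept in the test (0.70, adjusted p = 0.051). For NR1D2 the difference between the lines' changes was 0.27 ± 0.17 and did not pass as deposited (adjusted p = 0.19), but passed after rescaling of the TPM (0.54, adjusted p = 4.1e-04) and when the library median was a covariate (0.69, adjusted p = 2.8e-05), each time with the larger change in SKNAS.

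RORA, an activator at the RORE, rose in SHEP and fell in SKNAS on the TPM as deposited. In SHEP it was low, from 0.729 over a median of 1.71 to 3.11 TPM in MYC-OFF and from 0.984 over 2.21 to 4.04 TPM in MYC-ON. The ranges overlapped, and MYC-ON was higher in 21 of 28 pairs, with a log2 change of 0.29 ± 0.082 (limma, adjusted p = 0.0014). In series 1 alone it was 0.23 and not called (adjusted p = 0.077), and with the 2 series means per condition as replicates it was 0.29 and just missed the threshold (adjusted p = 0.056).

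In SKNAS, RORA ran from 5.04 over a median of 6.93 to 11.1 TPM in MYC-OFF and from 2.41 over 5.55 to 7.23 TPM in MYC-ON, lower in MYC-ON in 11 of 13 pairs. The log2 change was -0.40 ± 0.12 (limma, adjusted p = 0.014). It held with the library median as a covariate (-0.42, adjusted p = 0.0040), but was -0.077 with rescaled TPM (adjusted p = 0.71) and -0.19 over the libraries with a median of at least 3.8, 10 MYC-OFF and 3 MYC-ON (adjusted p = 0.39), and was called in neither. The difference between the lines' changes, -0.69 ± 0.14, passed (adjusted p = 4.2e-05), and passed with rescaled TPM too (-0.44, adjusted p = 0.018). RORA-AS1 rose in both lines, by 0.61 in SHEP (adjusted p = 3.0e-08) and 1.13 in SKNAS (adjusted p = 1.0e-04).

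RORB, a paralog best known from retina and brain, was close to 0 in SHEP and expressed in SKNAS. It ran from 0.00603 over a median of 0.0255 to 0.132 TPM in SHEP MYC-OFF and from 0.0193 over 0.0588 to 0.247 TPM in SHEP MYC-ON. This is under the filter of a mean of 1 TPM, so no test of its change with MYC-ON was read there. In SKNAS, RORB ran from 0.553 over 2.98 to 5.13 TPM in MYC-OFF and from 0.792 over 3.03 to 9.68 TPM in MYC-ON, with MYC-ON higher in 6 of 13 pairs. The log2 change of 0.12 ± 0.21 did not pass as deposited (limma, adjusted p = 0.65). It was called higher with rescaled TPM (0.39, adjusted p = 0.024), with the library median as a covariate (0.59, adjusted p = 0.0010) and over the libraries with a median of at least 3.8 (1.04, adjusted p = 0.0011).

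Of the members tested, 3 of 3 were called higher in SHEP, where 33% of all genes tested were called higher and 38.9% lower. In SKNAS 2 of 4 were called higher, against 13.9% of all genes, and 1 lower, against 34.2%. The change differed between the lines for 1 of 4 members, against 51.5% of all genes. The median change over all genes tested was -0.036 in SHEP and -0.29 in SKNAS, and 0.0049 and 0.032 after rescaling, so that in SKNAS a member with no change as deposited lay above the bulk of genes.

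**Figure D2:**
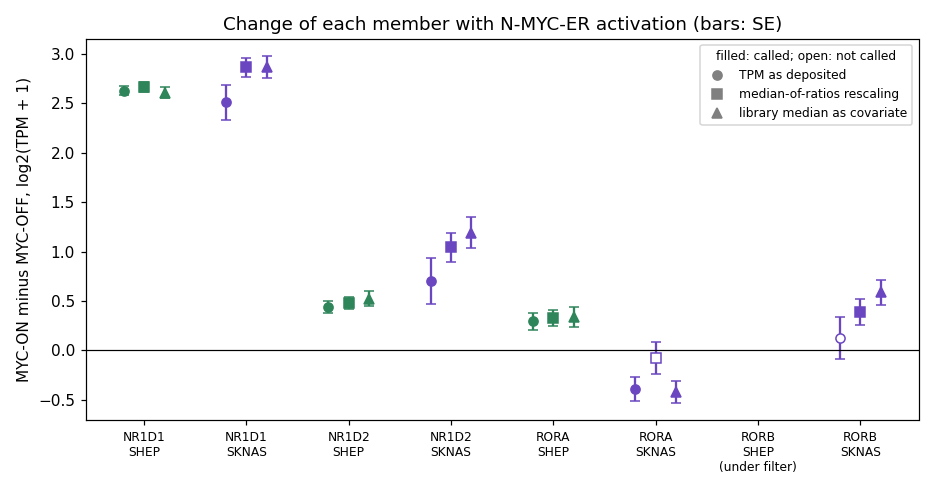
Change with N-MYC-ER activation of each member in SHEP (green) and SKNAS (purple), MYC-ON minus MYC-OFF on the log2(TPM + 1) scale, with standard errors as bars, circles for TPM as deposited, squares for rescaled TPM, triangles for the library median as a covariate, and open symbols where not called. NR1D1 sits between 2.51 and 2.87 throughout, while RORA in SKNAS runs from -0.42 to -0.077 and RORB from 0.12 to 0.59 with the scaling.

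The make-up of the family shifted accordingly, given here as a description on the TPM scale. In SHEP MYC-OFF, NR1D2 was the most abundant member in every library, and its range did not overlap that of NR1D1, nor did NR1D1 overlap RORA or RORA overlap RORB. In SHEP MYC-ON the order of NR1D1 and NR1D2 was exchanged, again with no overlap between neighbours. The ratio of NR1D1 to NR1D2 went from 0.341 ± 0.059 to 1.80 ± 0.28 in SHEP (SD, n = 28 each) and from 0.816 ± 0.16 (SD, n = 14) to 3.16 ± 0.57 (SD, n = 13) in SKNAS. In SKNAS, neighbours in the order of levels overlapped in both conditions.

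NR1D1 made up 23.1% of the members' summed TPM in SHEP MYC-OFF against 61.2% in MYC-ON, and 26.5% against 65.6% in SKNAS. RORA and RORB together were at 1.78 ± 0.60 and 2.45 ± 0.85 TPM in SHEP MYC-OFF and MYC-ON, and at 10.3 ± 2.35 and 9.09 ± 3.47 TPM in SKNAS. REV-ERB transcripts outnumbered ROR transcripts 12.3 ± 5.37 to 1 in SHEP MYC-OFF and 1.62 ± 0.52 to 1 in SKNAS MYC-OFF, and 25.4 ± 9.98 and 6.94 ± 1.55 to 1 in MYC-ON.

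**Figure D3:**
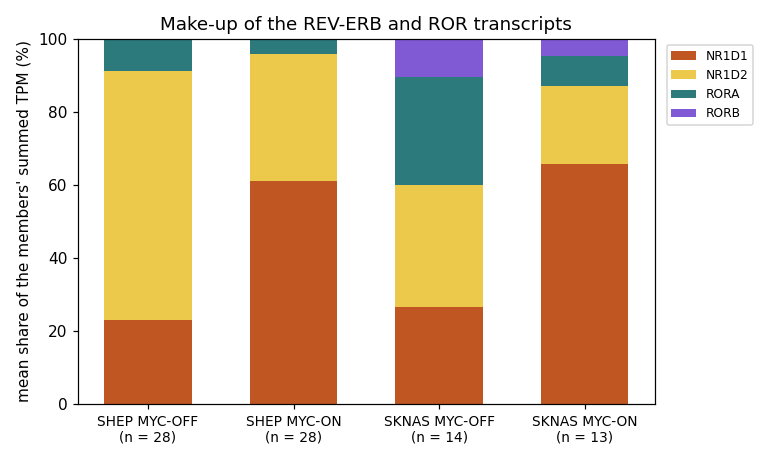
Mean share of each member in the summed TPM of all 4, in percent, for each group. NR1D1 takes the largest part in both MYC-ON groups (61.2% and 65.6%), and RORA and RORB are visible mainly in SKNAS.

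Compared between lines, all 4 members differed in MYC-OFF, as did 78.6% of all genes tested, and all 4 in MYC-ON, as did 84.4%. RORA was higher in SKNAS by 1.61 ± 0.11 in MYC-OFF and 0.96 ± 0.11 in MYC-ON, and RORB by 1.81 ± 0.11 and 1.92 ± 0.15 (limma, log2 scale, adjusted p at most 6.3e-09 in each). For RORB the pseudocount of 1 holds the value down, and with a pseudocount of 0.1 it was 4.27 and 4.2. NR1D1 was higher in SKNAS by 0.43 ± 0.12 (adjusted p = 0.0015) and 0.34 ± 0.099 (adjusted p = 0.0022), which came to 0.57 and 0.84 with rescaled TPM and 0.72 and 1.00 with the covariate. NR1D2 was lower in SKNAS, by -0.68 ± 0.12 in MYC-OFF (adjusted p = 1.1e-05) and by -0.44 ± 0.14 in MYC-ON (adjusted p = 0.0045). The MYC-ON value for NR1D2 turned with the scaling, to 0.031 with rescaled TPM (adjusted p = 0.71) and 0.50 once the covariate was in the model (adjusted p = 3.0e-05), and was -0.35 and not called against SHEP series 1 alone (adjusted p = 0.10).

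NR1D2 was the member with a called 24 h rhythm, in SHEP MYC-OFF. A cosinor with a fixed period of 24 h, after removal of each series' mean and linear trend, gave an amplitude of 0.416 ± 0.058 (SE, log2 scale, from mean to peak) and a peak 3.4 ± 0.56 h after each multiple of 24 h (limma F test, adjusted p = 0.0083). It was 1 of 4 members and 1 of 6 genes called in this group, 0.0306% of all genes tested. The series peaked at 2.5 h (series 1) and 4.2 h (series 2) with amplitudes of 0.388 and 0.466, and neither passed alone after adjustment over all genes (adjusted p = 0.57 and 0.67). With a period of 26 h the amplitude was 0.450 (adjusted p = 1.5e-04) and with 22 h it was 0.344 and not called (adjusted p = 0.26).

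The rhythm of NR1D1 in SHEP MYC-OFF was not called. Its amplitude was 0.283 ± 0.059 and its peak at 3.4 ± 0.83 h (3.4 h in each series), with an unadjusted p of 2.6e-04 from the limma F test that did not pass after adjustment (adjusted p = 0.13). ARNTL peaked at 19.3 ± 0.67 h with an amplitude of 0.265 ± 0.049, and did not pass either (adjusted p = 0.070). NR1D1 stood at 6.67 and 6.93 TPM at CT28, at 3.38 and 3.34 at CT40, and at 5.71 and 5.97 at CT52. It stood at 3.88 and 4.56 TPM at CT60, at 5.33 and 5.02 at CT64, and at 4.09 and 4.92 at CT68. The low value of CT40 thus did not come again at CT64, though NR1D1 was lower at CT60 and CT68 than at CT64. NR1D2 stood at 10.3 and 13.2 TPM at CT64. RORA and RORB had amplitudes of 0.057 ± 0.087 and 0.016 ± 0.016 and did not pass (adjusted p = 0.95 and 0.91).

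In SHEP MYC-ON neither REV-ERB gene had a called rhythm. The amplitude was 0.106 ± 0.031 for NR1D1 (adjusted p = 0.41) and 0.069 ± 0.040 for NR1D2 (adjusted p = 0.74), with peaks at 4.7 and 5.4 h. By limma 0 of 4 members were called and 1, NR1D1, had an unadjusted p under 0.05, in a group where 0.00993% of all genes were called. That share rests on the adjusted p and is no background for the unadjusted count. The difference in rhythm between the conditions did not pass for any member, as for 0% of all genes tested in SHEP. The NR1D2 amplitude was lower in MYC-ON by -0.347 (unadjusted p = 3.5e-05, adjusted p = 0.59) and the NR1D1 amplitude by -0.178 (unadjusted p = 0.021, adjusted p = 0.97), and these were the 2 of 4 members under 0.05 unadjusted. No share of all genes under 0.05 unadjusted was computed for this difference. With a period of 26 h the NR1D2 difference passed (-0.382, adjusted p = 0.010).

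**Figure D4:**
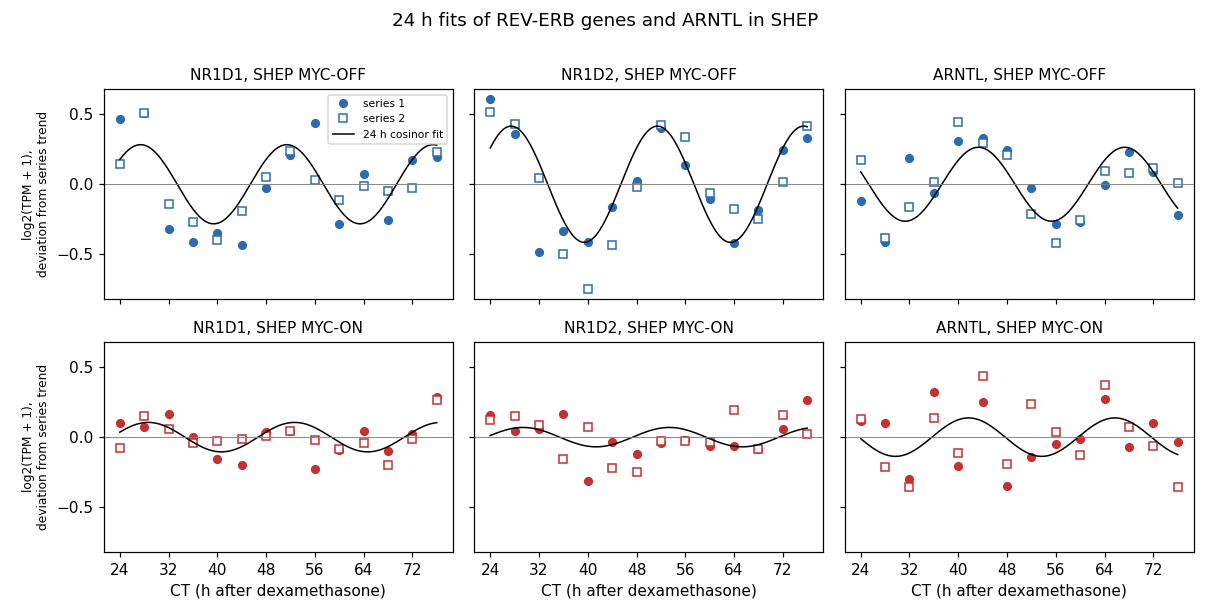
Deviation of NR1D1, NR1D2 and ARNTL from each series' mean and linear trend (log2(TPM + 1)) by CT in SHEP MYC-OFF (blue) and MYC-ON (red), with filled and open symbols for series 1 and 2 and the fixed 24 h fit as a line. The NR1D2 wave in MYC-OFF has an amplitude of 0.416, against 0.069 in MYC-ON.

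A damped oscillator with a searched period called NR1D1 and NR1D2 in SHEP MYC-OFF, both at a period of 26.5 h (adjusted p = 8.6e-04 and 4.5e-05). The same oscillator also called ARNTL there, at 26.5 h too (adjusted p = 4.2e-04). A call required a period of 20 to 28 h, and in the other 3 groups no member's best period lay within it. Its p is too small because the period is chosen to suit the data, and it called 14% of all genes in SHEP MYC-OFF. The share of all genes called was 11.8% for the MYC-ON libraries of SHEP. For SKNAS it was 4.86% (MYC-OFF) and 3.76% (MYC-ON). The absence of called members in these groups does not stand out from such shares.

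In SKNAS no member had a called 24 h rhythm by the cosinor. In each SKNAS group 0 of 4 members were called and 0 had an unadjusted p under 0.05, beside 0% of all genes called. The amplitudes were 0.11 ± 0.16 for NR1D1 and 0.20 ± 0.21 for NR1D2 in MYC-OFF and 0.21 ± 0.20 and 0.25 ± 0.27 in MYC-ON. The errors for NR1D2 were thus several times that in SHEP MYC-OFF. The difference in rhythm between SKNAS conditions was called for 0 of 4 members (0 under an unadjusted 0.05) and 0% of all genes.

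RORA rose over the days in SHEP MYC-ON, and its trend there differed from that in SHEP MYC-OFF. At CT24 to CT32 it ran from 1.21 over a median of 1.80 to 2.15 TPM in MYC-OFF and from 0.984 over 1.36 to 2.00 TPM in MYC-ON (6 libraries each). At CT68 to CT76 it ran from 0.729 over 1.87 to 3.07 TPM in MYC-OFF and from 2.85 over 3.31 to 4.04 TPM in MYC-ON. The ranges of MYC-OFF and MYC-ON thus overlapped at both ends of the course, while in MYC-ON the late libraries all lay above the early ones. The mean difference on the log2 scale was -0.18 over the first 3 CTs and 0.66 over the last 3, so that the RORA change quoted above is a mean over a course that crossed.

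The slope of RORA in SHEP MYC-ON was 0.47 ± 0.050 per 24 h (limma, log2 scale, adjusted p = 1.9e-08), against 8.4e-04 ± 0.091 in MYC-OFF (adjusted p = 0.998). The difference of the slopes, a test added after the data had been seen, was 0.47 ± 0.10 (adjusted p = 3.2e-04), and was 0.44 and 0.50 in each series alone (adjusted p = 0.015 and 0.018). It was the case for 1 of 4 members, against 33.5% of all genes in SHEP. RORA-AS1 had a slope of 0.046 ± 0.070 in SHEP MYC-ON (adjusted p = 0.62).

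NR1D2 fell in SHEP MYC-ON, by -0.11 ± 0.041 per 24 h (limma, adjusted p = 0.034), though not with rescaled TPM (-0.058, adjusted p = 0.25), with the covariate (-0.050, adjusted p = 0.52) or in series 1 or 2 alone (adjusted p = 0.10 and 0.29). NR1D1 had a slope of 0.063 ± 0.033, not called (adjusted p = 0.12), and called at 0.11 with rescaled TPM (adjusted p = 0.010). In SHEP MYC-ON 2 of 4 members thus had a called trend, against 45.5% of all genes, and in SHEP MYC-OFF 0 of 4 (0 under an unadjusted 0.05), against 11.6%. In SKNAS MYC-OFF 0 of 4 passed by limma (2 under an unadjusted 0.05, NR1D1 at -0.55 ± 0.17 and RORB at -0.57 ± 0.21 per 24 h), beside 0% of all genes. The shares of all genes given for trends rest on the adjusted p, and none was computed for the unadjusted counts. In SKNAS MYC-ON 0 of 4 passed (0 unadjusted), beside 0.0223%, and the SKNAS slopes differed between conditions for 0 of 4 (0 unadjusted), beside 0.049%.

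The relation of each member to ARNTL of the same library, the clock gene that REV-ERBs repress and RORs activate, was taken within each group, as 16 relations. Libraries of a series are successive time points of 1 experiment, so they are not independent experiments. In SHEP MYC-OFF both REV-ERB genes were low where ARNTL was high. For NR1D1, Pearson's r was -0.575 (n = 28, permutation p = 0.0015, adjusted p = 0.0034) and Spearman's rho -0.552 (permutation p = 0.0029, adjusted p = 0.0078). For NR1D2, r was -0.584 (permutation p = 0.0013, adjusted p = 0.0034) and rho -0.551 (permutation p = 0.0028, adjusted p = 0.0078). With the trend of each series removed, r was -0.591 for NR1D1 and -0.574 for NR1D2, and without the 2 libraries farthest from the median ARNTL it was -0.545 and -0.511 (permutation test, adjusted p = 0.023 for each). Within series 1 and 2, r was -0.670 and -0.474 for NR1D1 and -0.541 and -0.597 for NR1D2, none of which passed alone over 14 libraries (permutation test, adjusted p from 0.077 to 0.19).

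In SHEP MYC-ON neither REV-ERB gene had a relation that passed. ARNTL itself ran from 9.86 to 19.5 TPM in MYC-OFF of SHEP and from 1.50 to 5.20 TPM in MYC-ON, lower by -2.03 ± 0.071 on the log2 scale (limma, adjusted p = 6.2e-29). Within MYC-ON, r was -0.093 for NR1D1 (permutation p = 0.61, rho -0.179, permutation p = 0.35) and -0.042 for NR1D2 (permutation p = 0.88, rho -0.104, permutation p = 0.69). With trends removed r was -0.291 and 0.085, and within series 1 and 2 it was 0.158 and -0.262 for NR1D1 and -0.056 and -0.434 for NR1D2, none of which passed (permutation test, adjusted p from 0.19 to 0.85). The difference between the conditions' correlations was not tested. RORA had r = 0.638 with ARNTL in SHEP MYC-ON (n = 28, permutation p = 1.6e-04, adjusted p = 7.2e-04, rho 0.673, permutation p = 7e-05), and 0.141 once each series' trend was removed (permutation test, adjusted p = 0.60). ARNTL rose over time there as RORA did, by 0.29 ± 0.066 per 24 h (limma, adjusted p = 7.8e-04). In SHEP MYC-OFF, RORA had r = 0.037 (permutation p = 0.85). RORB was too low in SHEP for its r to be read.

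**Figure D5:**
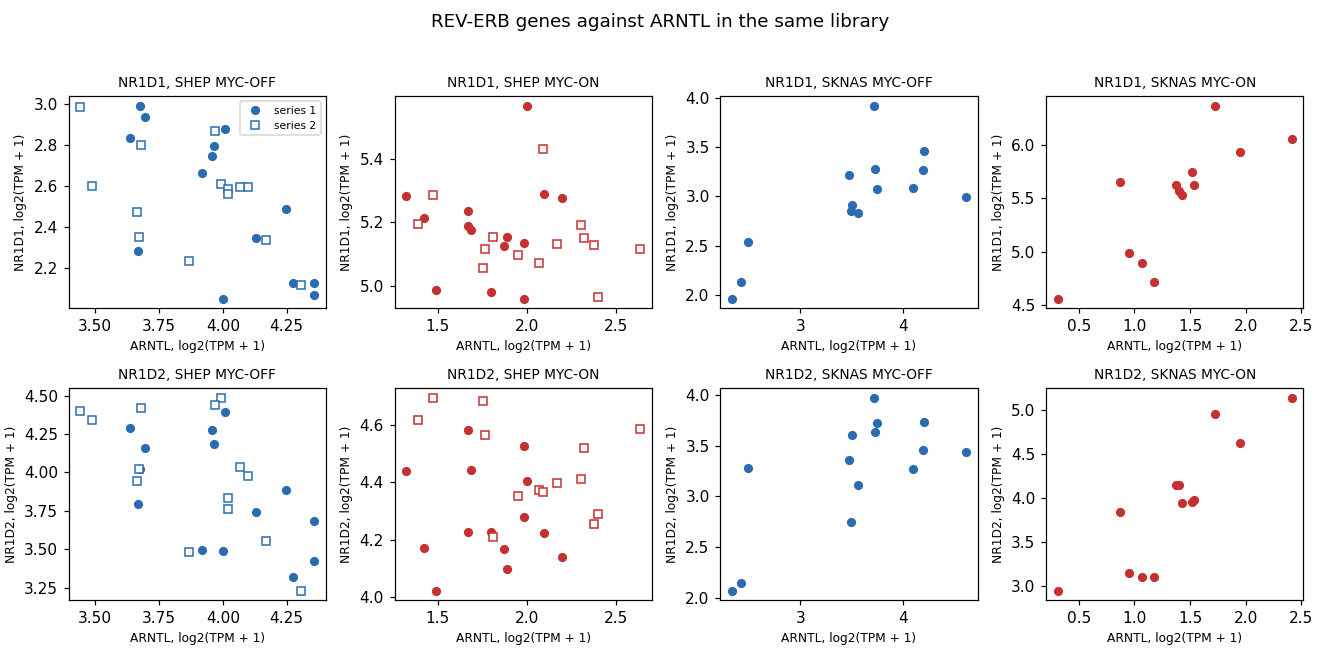
NR1D1 (top) and NR1D2 (bottom) against ARNTL in the same library, each on the log2(TPM + 1) scale, for the 4 groups, with filled and open symbols for series 1 and 2. The points fall from left to right in SHEP MYC-OFF (r = -0.575 and -0.584), have r = -0.093 and -0.042 in SHEP MYC-ON over both series (-0.262 and -0.434 within series 2), and rise in both SKNAS groups.

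In SKNAS the sign of r was positive for both REV-ERB genes and RORB. For NR1D1, r with ARNTL was 0.754 in MYC-OFF (n = 14, permutation p = 0.0019, adjusted p = 0.0039, rho 0.675, permutation p = 0.010) and 0.789 in MYC-ON (n = 13, permutation p = 0.0014, adjusted p = 0.0034, rho 0.753, permutation p = 0.0041). For NR1D2 it was 0.696 (permutation p = 0.0070, adjusted p = 0.012, rho 0.622, permutation p = 0.020) and 0.869 (permutation p = 7e-05, adjusted p = 5.6e-04, rho 0.863, permutation p = 3.5e-04). For RORB it was 0.916 (permutation p = 1e-05, the smallest these permutations can give, adjusted p = 1.6e-04, rho 0.868) and 0.862 (permutation p = 1.8e-04, adjusted p = 7.2e-04, rho 0.813). RORA had r = -0.063 and 0.345 (permutation p = 0.83 and 0.24), and rho was -0.20 and 0.62 (permutation p = 0.49 and 0.029).

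The same genes followed the library median in SKNAS, with r = 0.837 and 0.973 for NR1D1 in MYC-OFF and MYC-ON, 0.775 and 0.986 for NR1D2, 0.921 and 0.960 for RORB, 0.924 and 0.870 for ARNTL, and 0.034 and 0.171 for RORA, given as a description chosen after the data had been seen. With the library median removed from both genes, the r of NR1D1 with ARNTL was -0.095 in MYC-OFF and -0.477 in MYC-ON, that of NR1D2 -0.085 and 0.165, and that of RORB 0.434 and 0.212, and no relation passed in SKNAS (permutation test, adjusted p from 0.39 to 0.83). Without the 2 libraries farthest from the median ARNTL, r in SKNAS MYC-OFF was 0.463 for NR1D1 and 0.248 for NR1D2 and did not pass (permutation test, adjusted p = 0.26 and 0.58). In the same setting RORB in MYC-OFF still passed (0.866, adjusted p = 0.0013), as did NR1D1 (0.698, adjusted p = 0.039), NR1D2 (0.796, adjusted p = 0.019) and RORB (0.782, adjusted p = 0.019) in MYC-ON by the permutation test. With rescaled TPM, RORB in MYC-OFF kept its call (0.694, permutation test, adjusted p = 0.024).

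Genes whose course was most like that of a member were listed by Pearson's r, as a description. Over the 56 SHEP libraries, where the conditions form separate clusters, IGSF9 (0.983), BMP6 (0.983), PLD6 (0.982), FAM222A-AS1 (0.981) and BLMH (0.981) were most like NR1D1 of 14362 genes. For NR1D2 these were BICD1 (0.760), IL17D (0.722), HNRNPDL (0.714), H3-2 (0.713) and CHD7 (0.713), and for RORA MSR1 (0.789), CR381653.2 (0.753), LETMD1 (0.750), FRG1HP (0.737) and AHCYL1 (0.731). In SHEP MYC-OFF with the trend of each series removed (28 libraries, 14264 genes), NR1D1 was the gene most like NR1D2, and NR1D2 the second most like NR1D1, at r = 0.812.

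After SLC2A1 (0.817), which encodes the glucose transporter GLUT1, and NR1D2, the genes nearest to NR1D1 there were CYB561 (0.802), ZMIZ1 (0.758) and SERTAD1 (0.758). Those nearest to NR1D2 after NR1D1 were ATG2A (0.804), CYB561 (0.793), SYTL2 (0.791) and BICD1 (0.771). CYB561 stood in both lists. For RORA the nearest were ZNF426 (0.707), AASDHPPT (0.663), SMARCD2 (0.654), RASGRF2 (0.651) and AGFG1 (0.648).

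RORB was compared within SKNAS. Over its 27 libraries the nearest genes were ANP32E (0.968), SYNCRIP (0.967), XPO1 (0.966), DDX52 (0.965) and LRRC58 (0.965), and over the 14 MYC-OFF libraries with the trend removed CLDND1 (0.981), THAP6 (0.974), MACF1 (0.973), AC092279.1 (0.972) and RBM26 (0.971). The relation of RORB to the library median given above lies beside these values.

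Around the receptors, ARNTL, CLOCK, NPAS2, NFIL3 and CRY1 were listed as genes known to carry ROREs. In SHEP 4 were tested, of which 2 fell and 1 rose, beside 38.9% of all genes called lower and 33% higher, and in SKNAS 5, of which 3 fell, beside 34.2% lower and 13.9% higher. These shares are the background for the counts as deposited of each list that follows. No share of all genes was computed with rescaled TPM or the covariate, so counts under those settings have no background beside them. The median change over all SKNAS genes tested was -0.29 as deposited, 0.032 with rescaled TPM and 0.013 with the covariate. ARNTL fell by -2.03 in SHEP and -2.18 in SKNAS, and NFIL3, a repressor at D-boxes, by -0.88 and -1.04 (limma, adjusted p at most 1.0e-04 in each). NPAS2, a paralog of CLOCK, fell in SKNAS by -1.20 (adjusted p = 4.0e-04). CRY1, a repressor of CLOCK and ARNTL, rose in SHEP by 0.97 (adjusted p = 2.2e-19) and was at 0.45 in SKNAS, not called (adjusted p = 0.13) but called with rescaled TPM (0.80) and the covariate (0.97). The median change of the list was -0.49 in SHEP and -1.04 in SKNAS.

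Genes with E-boxes are the class to which the REV-ERB genes belong. Of 11 listed, 9 were tested in each line, and 7 rose in each, beside 33% of all genes in SHEP and 13.9% in SKNAS, with a median change of 0.81 in SHEP and 0.90 in SKNAS. PER3 rose by 2.14 and 1.27 and PER2 by 1.28 and 1.00, both repressors of the clock, and DBP, an activator at D-boxes, by 0.89 and 0.90 (limma, adjusted p at most 0.0022 in each). BHLHE40, a repressor at E-boxes, fell in SHEP (-0.48, adjusted p = 1.2e-12) and rose in SKNAS (1.03, adjusted p = 2.9e-04).

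Of the 6 genes of the NCOR1 and HDAC3 corepressor complex, through which REV-ERBs act, 4 rose and 1 fell in SHEP, and 1 rose and 1 fell in SKNAS, where 4 rose with the covariate. Of all genes as deposited, 33% rose and 38.9% fell in SHEP and 13.9% and 34.2% in SKNAS. The SKNAS counts as deposited thus lay near or under the background. For the counts with the covariate, of this list and of the coactivators below, no share of all genes was computed. NCOR1 fell in both (-0.59 and -1.09, adjusted p = 2.7e-08 and 0.0072), and HDAC3 rose in both (0.15 and 0.48, adjusted p = 1.3e-04 and 4.7e-04). Of 7 coactivators, 6 were tested, and 5 fell and 1 rose in SHEP and 3 fell and 1 rose in SKNAS, where 1 fell with the library median as a covariate. PPARGC1B, a coactivator of nuclear receptors, was the one that rose (0.66 and 0.57, adjusted p = 7.6e-15 and 0.040).

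Of 8 genes linked to the turnover of REV-ERB proteins, 3 rose and 1 fell in SHEP and 1 rose and 1 fell in SKNAS, where 6 rose with the library median as a covariate. As deposited, the shares that rose were near those of all genes, 33% in SHEP and 13.9% in SKNAS. The count of 6 with the covariate has no share of all genes beside it. SIAH2, a ubiquitin ligase, rose in both lines (0.57 and 0.47, adjusted p = 5.8e-17 and 0.019), and FBXW7, a substrate receptor of a ubiquitin ligase, rose in SHEP (0.46, adjusted p = 3.2e-11) and was at -0.37 in SKNAS (adjusted p = 0.26), and at 0.27 and called with the covariate. Of 12 genes of heme synthesis and breakdown, which set the supply of the REV-ERB ligand, 4 rose and 4 fell in SHEP and 3 rose and 5 fell in SKNAS, where 4 rose and 2 fell with rescaled TPM. In SHEP this was close to the background of 33% called higher and 38.9% lower. In SKNAS the counts as deposited stood beside 13.9% and 34.2%, and those with rescaled TPM have no such share beside them. ALAS1, the first enzyme of heme synthesis, rose in SHEP (0.37, adjusted p = 1.0e-15) and was at -0.069 in SKNAS (adjusted p = 0.69). FECH, which inserts the iron, fell in both (-0.26 and -1.45, adjusted p = 1.7e-07 and 0.0017).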

How the data were processed

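Per the labels and the study's methods, the authors quantified paired-end reads with Salmon 1.3.0 (GRCh38) and summarised them per gene with Tximport. The deposited values are TPM for 60237 genes in 83 libraries, each library summing to 1 fixed total, so no depth or counting error is known for a value. The count model of the study could not be applied to TPM, and limma was used in its place. Levels were compared with limma 3.58.1 (R 4.3.3) on log2(TPM + 1) with CT as a factor, over genes with a mean of at least 1 TPM. Calls required p ≤ 0.05 after Benjamini-Hochberg adjustment over all genes tested, with a log2 change of 0.15 or more in size. Rhythms were fitted at 24 h to genes detected in 70% or more of the libraries in question, with thresholds on the adjusted p of 0.05 (SHEP) and 0.1 (SKNAS). Slopes used 0.05 and no fold limit. Correlations were tested, two-sided, with 100000 permutations within series. Alternatives were another pseudocount, no filter, rescaled TPM, the library median as a covariate, a replicate block, other periods, a damped oscillator and single series. Simulated data were used to test the fits of the MYC-ON change, its difference between lines, the rhythm, the rhythm difference, the slope and the oscillator. The slope difference, the comparison of levels between lines, the other alternatives and the correlations were not tested in this way.

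Time points served as the replicates, so p-values measure the spread between time points of 2 experiments in SHEP and 1 in SKNAS. No library pair had identical values. Named genes were the members, fixed lists for clock partners, cofactors, turnover, heme, overlapping genes and cell type markers, and the 5 genes most like each member. The members and lists were chosen with earlier results of these data known. Coordinates are from Gencode 44 and promoter sequences from RefSeq, on the build of the files. Some genes of these lists are not reported here.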

Additional observations from a re-analysis of the deposited data

Results flagged for a closer look

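The response of RORA to N-MYC-ER activation differed between the lines by a test of the difference itself, -0.69 on the log2(TPM + 1) scale, SKNAS minus SHEP (limma interaction, adjusted p = 4.2e-05), with RORA higher in MYC-ON in 21 of 28 pairs in SHEP and lower in 11 of 13 in SKNAS. The difference ranged from -0.88 to -0.44 over its alternatives and passed in each. The time trend of RORA in SHEP differed between MYC-ON and MYC-OFF by 0.47 per 24 h (limma, adjusted p = 3.2e-04), from 0.44 to 0.53 over its alternatives. THRA had a slope difference of the opposite sign there (-0.35, limma, adjusted p = 3.2e-04), not computed in each series alone. In SHEP MYC-ON, THRA went from 12.4 TPM at CT24 to 7.96 at CT76 in series 2, and from 9.31 to 9.36 in series 1. The library median had r = -0.46 with RORA in SHEP MYC-ON. With that median as a covariate the slope difference of RORA was 0.53, and the part of the median in it was not tested.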

How the results depend on the processing

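In all, 412 alternative values were computed for 83 results. Of these, 365 kept their side of the threshold, 29 lost the call and 11 gained it. Another 7 changed sign while called in the main fit, in the alternative or in both. A further count of 24, within the 365, changed sign without being called either way. RORB in SHEP entered a test only without the filter (0.041, adjusted p = 0.015, under the fold limit).

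With the replicate block in SHEP the changes were 2.63 for NR1D1, 0.44 for NR1D2 and 0.29 for RORA, and no call changed. The series' differences correlated at 0.489 across genes between MYC-OFF and MYC-ON, and the labels give the number alone. With a pseudocount of 0.1 the RORB difference between lines was 4.27 (MYC-OFF) and 4.2 (MYC-ON). With series means as replicates RORA was at 0.29 and lost its call.

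Rescaled TPM ended the calls of RORA in SKNAS (-0.077) and of the NR1D2 trend in SHEP MYC-ON (-0.058), turned NR1D2 between lines in MYC-ON (0.031), and added calls for RORB in SKNAS (0.39), the line difference of NR1D2 (0.54) and RORB (0.30), the NR1D1 trend in SHEP MYC-ON (0.11) and the r of RORA with ARNTL in SKNAS MYC-OFF (-0.635). It moved the r with ARNTL in SKNAS MYC-OFF to -0.0081 (NR1D1) and -0.0064 (NR1D2) and in MYC-ON to 0.012 (NR1D1), 0.515 (NR1D2) and 0.581 (RORB). With the library median as a covariate, the values were 0.59 for RORB in SKNAS, 0.69 and 0.46 for the line difference of NR1D2 and RORB, 0.50 for NR1D2 between lines in MYC-ON and -0.050 for the NR1D2 trend. With the library median removed from both genes, the r with ARNTL came to -0.095 (NR1D1), -0.085 (NR1D2) and 0.434 (RORB) in SKNAS MYC-OFF and to -0.477, 0.165 and 0.212 in MYC-ON.

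Over SKNAS libraries with a median of at least 3.8, RORA was at -0.19 and RORB at 1.04, and without the filter NR1D2 in SKNAS was at 0.70 with its call lost. A 22 h period gave the NR1D2 rhythm 0.344 and a 26 h period the NR1D2 rhythm difference -0.382. The oscillator gave NR1D1 an amplitude of 0.321. With trends removed the r with ARNTL was 0.568 for NR1D2 in SKNAS MYC-OFF and 0.141 for RORA in SHEP MYC-ON. Without the 2 libraries farthest in ARNTL it was 0.463 and 0.248 for NR1D1 and NR1D2 in SKNAS MYC-OFF.

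Over 1 SHEP series alone, calls were lost without series 2 for RORA in SHEP (0.23 to 0.36) and NR1D2 between lines in MYC-ON (-0.53 to -0.35), and in either series for the NR1D2 rhythm (0.388 to 0.466), the NR1D2 trend in MYC-ON (-0.12 to -0.098), and the r with ARNTL of NR1D1 (-0.670 to -0.474) and NR1D2 (-0.597 to -0.541) in MYC-OFF and of RORA (0.618 to 0.680) in MYC-ON, where the relations rest on 14 libraries. For other lost or turned calls the cause was not tested. SKNAS, with 1 series, has no repeat of the experiment, and TPM give no depth for RORB in SHEP.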
